A study of Homo sapiens with 9 samples.

Results

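Granulosa-tumour cells kept for 72 h in 1 µg/ml insulin were set against cells kept in solvent, gene by gene, by RNA sequencing. The comparison covered 12594 of the 15983 genes in the count table, namely those with at least 10 counts in at least 3 of the 6 libraries compared. The other 3389 genes were not tested. At the edge of that minimum, 65 genes had 10 as the third-highest count, with 39 to 70 counts over the 6 libraries (median 56). Just outside it, 85 genes had 9 as the third-highest count, with 33 to 79 counts (median 52). Of the tested genes, 12329 (97.9%) are protein-coding in GENCODE release 29.

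The cells were KGN, a single established line derived from a human granulosa cell tumour and labelled wild type. All groups were fasted for 12 h, a step the insulin-treated and the solvent cells share, and then treated for 72 h. The 1 µg/ml insulin group and the solvent group had 3 libraries each. The 3 libraries of a further group, at 0.5 µg/ml insulin, entered the model only to estimate the spread and are quoted where their level adds to a result. Whether libraries of a group come from different cultures is not in the labels. The tests therefore reflect the spread among these libraries alone, which may be technical. The study's title and design text pose the question of how granulosa cells respond to high insulin.

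Insulin binds a receptor tyrosine kinase, the insulin receptor, and at high concentration also the related IGF-1 receptor. Both receptors phosphorylate adaptor proteins of the IRS family, which recruit PI3-kinase, and the lipid messenger it makes activates AKT. AKT in turn raises mTORC1 activity and keeps FOXO transcription factors out of the nucleus, while the SREBP factors downstream raise lipid synthesis genes. In granulosa cells of the ovary, insulin is known to act alongside FSH on steroid production, and high circulating insulin is a feature of many women with polycystic ovary syndrome.

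The 1 µg/ml insulin libraries held 19887010, 20090189 and 20208576 counts and the solvent libraries held 18965722, 20208519 and 20446405. Levels are in CPM, counts scaled to library totals that were adjusted by the TMM method. In the shallowest library a gene with 0 counts could have a level of up to 0.158 CPM, by counting error alone. Most granulosa markers were detected, at widely differing levels, with sums that overlapped between the groups. In a bulk library, fewer cells of a type and less RNA per cell cannot be told apart. The sum over the 20 listed markers, 17 of which were tested, was 682 to 714 CPM with 1 µg/ml insulin and 663 to 729 CPM with solvent. FOXL2, the ovarian forkhead factor, averaged 26.1 ± 1.82 CPM with 1 µg/ml insulin and 26.2 ± 2.37 CPM with solvent (SD, 3 libraries each). FSHR, the FSH receptor, lay between 17.6 and 21.4 CPM with 1 µg/ml insulin and between 15.2 and 22.2 CPM with solvent. GATA4 made the largest part of the sum, at 165 to 178 CPM with 1 µg/ml insulin and 161 to 177 CPM with solvent. Other granulosa markers were near the floor. HSD17B1, INHA and NR5A2 reached at most 0.993, 0.950 and 1.29 CPM. AMHR2 and ESR2 had 20 and 24 counts over the 6 libraries and were not tested. The LH receptor gene LHCGR had 1 count over the 6 libraries. The 4 markers of theca and Leydig cells, LHCGR among them, summed to at most 0.397 CPM with 1 µg/ml insulin and 0.475 CPM with solvent, and none was tested. Epithelial markers summed to 1836 to 1961 CPM with 1 µg/ml insulin and 1753 to 1927 CPM with solvent, nearly all of it KRT18, while EPCAM reached at most 0.100 CPM. Marker sums of fibroblasts and smooth muscle were 915 to 1007 CPM with 1 µg/ml insulin and 881 to 941 CPM with solvent. Blood and immune markers summed to 107 to 125 CPM with 1 µg/ml insulin and 101 to 131 CPM with solvent, with HBB at 0. Endothelial markers summed to 20.6 to 21.4 CPM with 1 µg/ml insulin and 17.3 to 21.5 CPM with solvent.

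No gene passed the test. With the edgeR quasi-likelihood test and Benjamini-Hochberg adjustment at 0.05, 0 of 12594 genes were called (0%), and the smallest adjusted p was 1.00. An unadjusted p under 0.05, which makes no call, was reached by 296 genes (2.35%). Among them 136 were higher with 1 µg/ml insulin (1.08%) and 160 lower (1.27%). With no difference in any gene, a share near 0.05 would be expected to reach such a p, which is more than was found. All 3 insulin libraries exceeded all 3 solvent libraries for 486 genes (3.86%) and lay below them for 493 (3.91%). DESeq2 called 0 genes and had 172 at an unadjusted p under 0.05, and limma voom called 0 and had 296. Differences were small in size as well: the median log2 fold change was -0.000223, the median absolute value was 0.0478, the 5th percentile was -0.18 and the 95th was 0.19.

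The libraries were deep enough to bound most genes closely. The 95% interval of the insulin-to-solvent ratio excluded a 1.5-fold change in either direction for 11146 genes (88.5%) and a 2-fold change for 12092 (96.0%). That precision depended on the level of a gene. Of 2110 genes above 100 CPM, 100% had an interval that excluded a 1.5-fold change, and of 3022 genes from 5 to 20 CPM 98.2% did. Of 1436 genes from 1 to 5 CPM the share was 41.9%, and of 559 genes below 1 CPM it was 0%, so that a 1.5-fold difference was not excluded for any of them. Only 4 of the 138 genes estimated to differ by more than 1.5-fold had a mean level of 5 CPM or more.

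**Figure D1:**
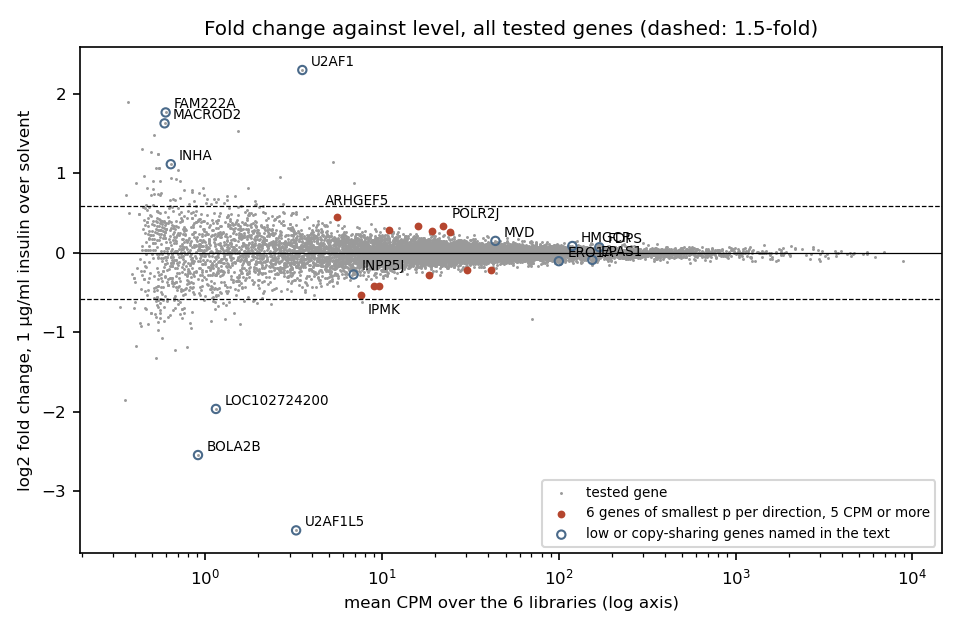
Log2 fold change of each of the 12594 tested genes, 1 µg/ml insulin over solvent (vertical axis), against its mean level in CPM on a log axis. Points spread widely at low levels and close in on 0 as the level rises, and 0 genes were called.

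The most abundant messages differed by little between the groups. By FPKM, a length-scaled level averaged over the 6 libraries, the top 5 genes were B2M at 5745, TMSB10 at 4738, FTL at 4397, FTH1 at 3830 and ACTB at 3819. B2M, the light chain of class I MHC, had a log2 fold change of -0.01 ± 0.05 (SE). TMSB10, the actin-binding thymosin beta-10, had 2164, 2202 and 2301 CPM with 1 µg/ml insulin against 2106, 2146 and 2154 CPM with solvent. Its groups did not overlap, and the log2 fold change was 0.06 ± 0.05. For the ferritin light and heavy chains FTL and FTH1 the log2 fold changes were 0.00 ± 0.07 and -0.01 ± 0.05, with 62.4% of FTH1 exon bases overlapped by BEST1 on the other strand. ACTB, cytoplasmic beta-actin, stood at 6840, 7021 and 6935 CPM with 1 µg/ml insulin and at 6849, 6845 and 6917 CPM with solvent. These groups overlapped, and the log2 fold change was 0.01 ± 0.06. The narrowest interval belonged to MSN, the membrane-actin linker moesin, at 747, 728 and 730 CPM with 1 µg/ml insulin against 746, 755 and 736 CPM with solvent. Its log2 fold change was -0.02 ± 0.04, with an interval from -0.11 to 0.06.

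Libraries of the same group differed as much as libraries of different groups. The median absolute log2 difference between a pair of libraries was 0.0758 to 0.106 over 6 pairs within a group and 0.0743 to 0.101 over 9 pairs across groups. Chi-square per degree of freedom was 2.61 to 6.67 within a group and 2.63 to 5.69 across groups, and no pair was counted as a repeat of 1 library. The first principal component of the 6 libraries (33.0% of variance) placed the 1 µg/ml insulin libraries 1, 2 and 3 at -5.19, -0.187 and 5.10, against -7.84, 0.429 and 7.68 for the solvent libraries. Along it, libraries with the same number lay near each other and the groups overlapped. The labels do not say what the numbers stand for, and no date or batch is given.

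**Figure D2:**
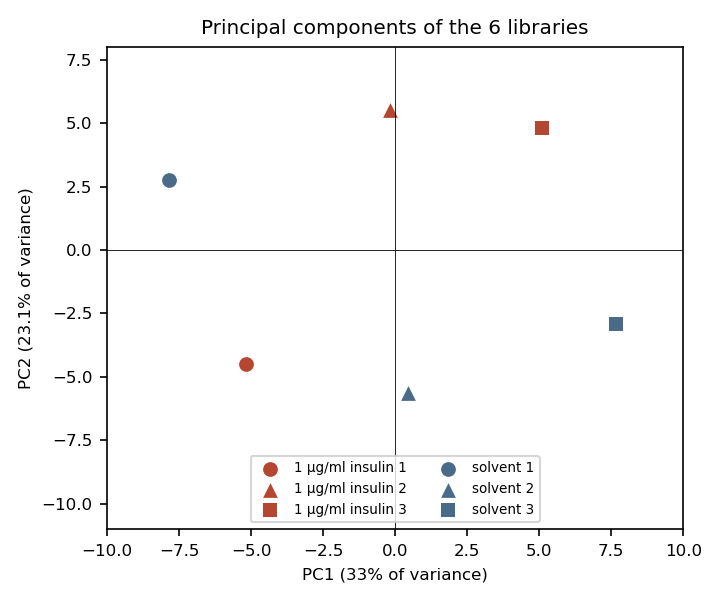
First (horizontal) and second (vertical) principal components of the 6 libraries, from log2(CPM + 1) of genes at 5 CPM or more, in arbitrary units, with colour for the group and symbol for the replicate number. The first component (33.0% of variance) orders the libraries by number in both groups.

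Given first are the genes of smallest p at 5 CPM or more whose groups did not overlap. With them are those of largest change at 10 CPM or more, also without overlap. None was called, and the edgeR adjusted p of each was 1.00. Intervals given after a log2 fold change are at 95% and unadjusted, so they can exclude 0 for a gene that was not called. POLR2J, a small subunit of RNA polymerase II (hg38 chr7:102473118-102478907), had 22.2, 25.0 and 26.9 CPM with 1 µg/ml insulin against 19.7, 18.7 and 20.5 CPM with solvent. Every insulin library stood above every solvent library, and the log2 fold change was 0.33 ± 0.08 (95% interval 0.17 to 0.50). Reads from 39.5% of its transcript could match its copy POLR2J3 at 98% identity or more, and how the authors' counting treated such reads is not given. At 0.5 µg/ml insulin POLR2J averaged 23.0 CPM. CCDC137 (chr17:81666364-81673904) had 19.1, 17.1 and 17.4 CPM with 1 µg/ml insulin against 15.4, 12.2 and 15.0 CPM with solvent, a log2 fold change of 0.33 ± 0.10 (95% interval 0.13 to 0.53). NTF3 encodes neurotrophin-3, a secreted growth factor (chr12:5432112-5521536). Its level was 21.5, 21.2 and 20.8 CPM with 1 µg/ml insulin against 19.0, 17.1 and 16.3 CPM with solvent, a log2 fold change of 0.28 ± 0.09 (95% interval 0.084 to 0.47). EFNB2, the membrane-bound ligand ephrin-B2 (chr13:106489731-106535662), had 28.3, 25.5 and 25.7 CPM with 1 µg/ml insulin against 23.0, 21.9 and 21.3 CPM with solvent. Its log2 fold change was 0.26 ± 0.09 (95% interval 0.073 to 0.45), and an antisense gene overlaps 26.2% of its transcript. TTC12, known for the assembly of ciliary dynein arms, differed by 0.29 ± 0.10 on the log2 scale, and IFTAP, a protein linked to intraflagellar transport, by 0.31 ± 0.12. ARHGEF5 differed by 0.45 ± 0.15, but 81.7% of its transcript matches the pseudogene ARHGEF34P.

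On the lower side the gene of smallest p above 5 CPM was IPMK, inositol polyphosphate multikinase, which makes higher inositol phosphates and can also phosphorylate the lipid PIP2 (chr10:58191517-58267934). It had 6.05, 6.75 and 5.92 CPM with 1 µg/ml insulin against 8.66, 8.15 and 10.2 CPM with solvent. All insulin libraries lay below all solvent libraries, and the log2 fold change was -0.53 ± 0.12 (95% interval -0.79 to -0.27). As a ratio the interval ran from 0.578 to 0.829. At 0.5 µg/ml insulin IPMK averaged 7.77 CPM. SLC30A7, which carries zinc into the Golgi (chr1:100896076-100981753), had 37.3, 38.9 and 38.1 CPM with 1 µg/ml insulin against 40.6, 46.2 and 46.0 CPM with solvent, a log2 fold change of -0.22 ± 0.07 (95% interval -0.36 to -0.082). The 0.5 µg/ml libraries averaged 37.2 CPM for SLC30A7. GSKIP binds the kinase GSK3-beta, which AKT phosphorylates (chr14:96363452-96387288). It had 17.8, 15.7 and 16.2 CPM with 1 µg/ml insulin against 19.3, 18.8 and 22.3 CPM with solvent, a log2 fold change of -0.28 ± 0.09 (95% interval -0.46 to -0.10). ERO1B, an oxidase that drives disulphide formation in the endoplasmic reticulum (chr1:236215555-236281985), had 9.35, 10.6 and 11.4 CPM with 1 µg/ml insulin against 13.7, 12.4 and 13.2 CPM with solvent. Its groups did not overlap, and the log2 fold change was -0.32 ± 0.10 (95% interval -0.53 to -0.11). FBF1, a centriole appendage protein, differed by -0.41 ± 0.12, with 68.5% of its transcript shared with the same-strand gene AC087289.3. TMEM102 differed by -0.42 ± 0.12, the mitochondrial membrane protein TMEM65 by -0.22 ± 0.07, the zinc finger gene ZNF407 by -0.29 ± 0.11 and SHROOM2, an actin-binding protein, by -0.28 ± 0.12.

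**Figure D3:**
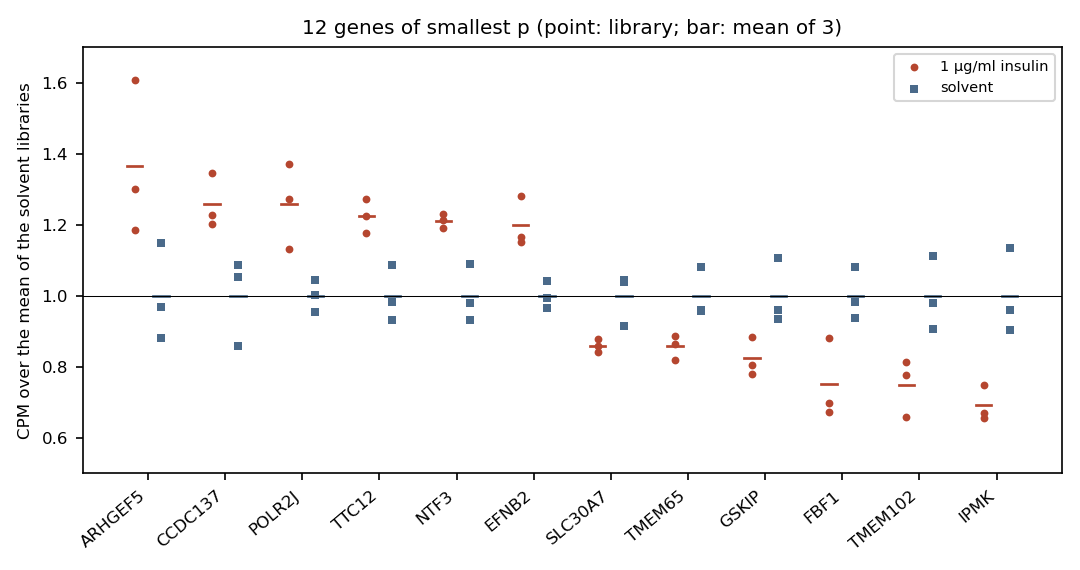
CPM in each library divided by the mean of the solvent libraries, a ratio, for the 6 genes of smallest p in each direction among those at 5 CPM or more without overlap, with 1 µg/ml insulin left of solvent for each gene. Points are libraries and bars are means of 3. Groups that do not overlap were a condition of the choice, and 0 genes were called.

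Genes of the insulin pathway and of other cell processes were looked at as lists by role. In every one of 25 lists with tested members 0 genes were called. Together the lists held 662 tested genes, of which 9 stood higher (1.36%) and 12 lower (1.81%) at an unadjusted p under 0.05, beside 1.08% and 1.27% of all genes tested. Groups did not overlap for 25 of the 662 on the higher side (3.78%) and for 30 on the lower side (4.53%), beside 3.86% and 3.91% of all genes tested. These shares lie near the background, so what follows describes levels and the size of differences.

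Of 24 listed receptors, ligands and adaptors of insulin and the IGFs, 18 were tested. Among the receptors and adaptors named below, the order by FPKM over the 6 libraries started with IGF2R at 24.6, GRB10 at 15.8 and IRS2 at 5.39. IGF1R at 4.98, IRS1 at 1.85 and INSR at 1.49 followed, and other members of the list were not ranked. The ligand genes IGF1 and IGF2 had 2 and 0 counts in the 6 libraries. INSR, the insulin receptor, had 14.3, 12.9 and 15.8 CPM with 1 µg/ml insulin against 12.7, 13.4 and 15.3 CPM with solvent. The groups overlapped, with a log2 fold change of 0.05 ± 0.10 and an interval from -0.16 to 0.26. IGF1R, the IGF-1 receptor, had 66.1, 61.3 and 66.1 CPM with 1 µg/ml insulin against 67.9, 66.8 and 70.8 CPM with solvent. Its groups did not overlap, but the log2 fold change of -0.09 ± 0.06 had a 95% interval from -0.22 to 0.045. IGF2R, which clears IGF-2 and carries lysosomal enzymes, had 324, 333 and 340 CPM with 1 µg/ml insulin against 364, 359 and 348 CPM with solvent. It too had no overlap, with a log2 fold change of -0.10 ± 0.04 (95% interval -0.19 to -0.011). IRS2, an adaptor whose gene FOXO factors activate in mouse liver, had 43.9, 38.6 and 40.5 CPM with 1 µg/ml insulin against 47.1, 51.5 and 41.7 CPM with solvent. The insulin libraries were mostly lower but overlapped, with a log2 fold change of -0.19 ± 0.08 (95% interval -0.35 to -0.032). IRS1, the other main adaptor, differed by 0.09 ± 0.08 and GRB10, an inhibitor that binds the receptor, by -0.01 ± 0.04. Of the 18 tested genes of this list 7 lay above 0 and the median log2 fold change was -0.02, beside 49.8% above 0 and a median of -0.000223 over all genes.

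The kinases below the receptor differed by little. Of 33 tested PI3-kinase, AKT and mTOR components 15 lay above 0, and none reached an unadjusted edgeR p under 0.05. By FPKM AKT1 stood at 61.1 and AKT2 at 13.9. AKT1 had 212, 206 and 202 CPM with 1 µg/ml insulin against 215, 211 and 196 CPM with solvent, a log2 fold change of -0.00 ± 0.05 with an interval from -0.10 to 0.09. AKT2 differed by 0.06 ± 0.05, the S6 kinase gene RPS6KB2 by 0.11 ± 0.07 and PHLPP1, a phosphatase that acts on AKT, by 0.12 ± 0.08. Of 28 inositol phosphate kinases and phosphatases 14 lay above 0, with IPMK the lowest p as given above. INPP5A, which removes a phosphate from soluble inositol trisphosphate, had 14.8, 14.5 and 13.3 CPM with 1 µg/ml insulin against 13.9, 12.2 and 10.1 CPM with solvent. Those groups overlapped, with a log2 fold change of 0.23 ± 0.11 (95% interval 0.013 to 0.45). INPP5J, which acts on PI3-kinase lipids, differed by -0.27 ± 0.13 (95% interval -0.54 to -0.0037) and its groups did not overlap. It was named after its values were seen.

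Targets of FOXO, which insulin is known to repress, lay mostly below 0, by small amounts and with none called. Of 25 tested members 9 were above 0, at a median log2 fold change of -0.01. That median ran from -0.051 to 0.00095 when a library was left out. KLF15, a Krüppel-like factor repressed by insulin in mouse liver, stood apart on the higher side, with 2.75, 1.79 and 2.12 CPM with 1 µg/ml insulin against 1.21, 1.28 and 1.27 CPM with solvent (chr3:126342635-126357442). Each insulin library exceeded each solvent library, and the log2 fold change was 0.82 ± 0.25 (95% interval 0.30 to 1.33). The 0.5 µg/ml libraries averaged 2.16 CPM. FOXO1 itself had 16.9, 17.8 and 19.9 CPM with 1 µg/ml insulin against 15.9, 17.2 and 19.1 CPM with solvent, a log2 fold change of 0.06 ± 0.10. Both groups held a low and a high library, and they overlapped.

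Immediate early genes, which answer growth factors within hours, lay on both sides of 0 after 72 h. Of 27 immediate early genes 12 lay above 0, with a median of -0.00. ZFP36, which encodes an RNA-decay factor, had 8.45, 9.53 and 9.42 CPM with 1 µg/ml insulin against 9.19, 13.5 and 10.9 CPM with solvent. The groups overlapped, with a log2 fold change of -0.29 ± 0.13 (95% interval -0.56 to -0.03). KLF4, another early gene, differed by -0.22 ± 0.12. The 24 feedback inhibitors of MAPK and cytokine signalling lay mostly below 0, with 9 above it (median -0.02). SPRY4, an inhibitor of receptor tyrosine kinase signalling, differed by 0.18 ± 0.09 and PHLDA1 by -0.12 ± 0.07.

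Lipid genes, which SREBP factors raise under insulin in liver, lay mostly above 0, by small amounts and with none called. Of 26 genes of cholesterol synthesis and uptake 22 were above 0, at a median log2 fold change of 0.05, and 6 had no overlap on the higher side, against a background of 3.86%. FDFT1, squalene synthase, had 235, 249 and 248 CPM with 1 µg/ml insulin against 225, 224 and 230 CPM with solvent, a log2 fold change of 0.11 ± 0.06 (95% interval -0.01 to 0.22). ACAT2, an early enzyme of the pathway and the member of smallest p, differed by 0.13 ± 0.07, and its groups overlapped. MVD differed by 0.15 ± 0.09 and FDPS by 0.07 ± 0.04, both enzymes that follow mevalonate and both without overlap. These 2 were named after their values were seen. The list's median was as low as 0.00721 when solvent library 1 was left out. Its mean level, on the log2 scale centred per gene, was -0.00141, 0.0437 and 0.0400 with 1 µg/ml insulin against -0.0837, -0.0479 and 0.0493 with solvent. Those groups overlapped, with solvent library 3 above all insulin libraries, and the 0.5 µg/ml libraries averaged -0.0472. Of 22 genes of fatty acid synthesis and desaturation 18 lay above 0 (median 0.03). DGAT1, which makes triglyceride, had 37.5, 38.4 and 37.0 CPM with 1 µg/ml insulin against 34.5, 34.1 and 35.8 CPM with solvent, without overlap and with a log2 fold change of 0.11 ± 0.07. Neither list held a gene at an unadjusted edgeR p under 0.05.

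Genes of glucose metabolism lay mostly below 0 and genes of steroid synthesis mostly above 0, by small amounts. Of 28 genes of glucose transport and glycolysis 10 lay above 0 (median -0.02). ENO2, a neuronal-type enolase, had 37.1, 43.3 and 40.5 CPM with 1 µg/ml insulin against 53.1, 51.5 and 39.7 CPM with solvent. Solvent library 3 lay within the insulin libraries, and the log2 fold change was -0.25 ± 0.11 (95% interval -0.48 to -0.028). SLC2A3, the glucose transporter GLUT3, differed by -0.13 ± 0.08 without overlap. Of 26 genes of steroid hormone synthesis 18 lay above 0 (median 0.04), and none reached an unadjusted edgeR p under 0.05. AKR1C1, which inactivates progesterone, differed by 0.15 ± 0.07 and HSD17B10 by 0.17 ± 0.09. CYP19A1, aromatase, spanned 8.05 to 9.53 CPM with 1 µg/ml insulin and 7.08 to 9.78 CPM with solvent. CYP17A1, needed for androgens and made by theca cells, had 1 count over the 6 libraries.

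Cell-cycle genes ordered the libraries by number in the 1 µg/ml insulin and the solvent group. So did the interferon response, ATF4 and unfolded protein lists given below. For the interferon list the mean level was 0.114, -0.024 and -0.133 in 1 µg/ml insulin libraries 1, 2 and 3, against 0.130, 0.032 and -0.121 with solvent. Of 35 tested genes of DNA replication and S phase 29 were above 0, at a median log2 fold change of 0.05. The list's mean level, on the log2 scale centred per gene, was 0.151, -0.006 and -0.067 in 1 µg/ml insulin libraries 1, 2 and 3, against 0.100, -0.059 and -0.119 in the solvent libraries. The groups overlapped, with number 1 highest and number 3 lowest in each. The list's median was -0.02 without 1 µg/ml insulin library 1 and 0.13 without solvent library 1. MCM6, a subunit of the replicative helicase, had 40.4, 37.0 and 41.1 CPM with 1 µg/ml insulin against 37.2, 31.5 and 35.2 CPM with solvent, a log2 fold change of 0.19 ± 0.07 (95% interval 0.037 to 0.35). Its partner MCM7 differed by 0.14 ± 0.08. Of 30 mitosis and spindle checkpoint genes 9 lay above 0 (median -0.02), and none reached an unadjusted edgeR p under 0.05.

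Genes of the transcription, translation and respiration machinery lay mostly above 0, by small amounts. Of 12 RNA polymerase II subunits 8 lay above 0 (median 0.03), and POLR2J was the only member whose groups did not overlap. Of 53 cytosolic ribosomal protein genes 44 were above 0, at a median log2 fold change of 0.03. RPS15, a small-subunit protein, had 319, 309 and 313 CPM with 1 µg/ml insulin against 298, 287 and 278 CPM with solvent. Those groups did not overlap, and the log2 fold change was 0.12 ± 0.04 (95% interval 0.031 to 0.22). RPS16 differed by 0.11 ± 0.05. The ribosomal list's mean level, centred per gene, was -0.0223, 0.0285 and 0.0468 with 1 µg/ml insulin against 0.0390, -0.0626 and -0.0294 with solvent, so the groups overlapped. Without solvent library 2 its median was 0.00918. Of 48 nuclear-encoded respiratory chain genes 37 lay above 0 (median 0.03), and NDUFA2, a complex I subunit, differed by 0.17 ± 0.08 (95% interval 0.0036 to 0.33). Without solvent library 2 the respiratory median was 0.00813.

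Stress and matrix genes lay mostly below 0, with none called. Of 25 genes of the unfolded protein response and protein folding 3 lay above 0, with a median of -0.05. ERO1B, described above, was the member of smallest p, and DNAJB9, a chaperone cofactor, differed by -0.15 ± 0.08. The list's mean level was -0.007, -0.024 and -0.041 with 1 µg/ml insulin against 0.043, 0.027 and 0.002 with solvent, on the log2 scale centred per gene. Of 30 genes of the ATF4 amino acid response 11 lay above 0 (median -0.02), and SESN2, a stress-induced inhibitor of mTORC1, differed by -0.12 ± 0.08. Of 20 collagen chains 5 lay above 0 (median -0.06). COL5A1 had 1217, 1241 and 1294 CPM with 1 µg/ml insulin against 1330, 1363 and 1329 CPM with solvent, and its groups did not overlap. The log2 fold change of COL5A1 was -0.10 ± 0.05 (95% interval -0.20 to -0.0043). Of 29 other matrix genes 8 lay above 0 (median -0.04). LAMA1, a laminin chain of basement membranes, had 101, 96.6 and 93.7 CPM with 1 µg/ml insulin against 111, 104 and 101 CPM with solvent, a log2 fold change of -0.12 ± 0.05 (95% interval -0.23 to -0.018). Of 20 collagen hydroxylases and lysyl oxidases and related genes 6 lay above 0 (median -0.03). LOXL3, a lysyl oxidase that crosslinks collagen, had 1.10, 1.99 and 1.53 CPM with 1 µg/ml insulin against 2.38, 2.22 and 2.58 CPM with solvent. Without overlap, its log2 fold change was -0.64 ± 0.25 (95% interval -1.16 to -0.11). LOX itself, at 2900 ± 184 CPM with 1 µg/ml insulin and 3128 ± 206 CPM with solvent (SD, 3 libraries each), differed by -0.11 ± 0.05. PCOLCE, which enhances collagen processing, stood on the other side, at 3.50, 3.72 and 3.75 CPM with 1 µg/ml insulin against 2.91, 2.72 and 2.97 CPM with solvent. Its groups did not overlap, and the log2 fold change was 0.35 ± 0.17.

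Genes induced by low oxygen, many of them targets of the HIF factors, had the lowest median of the 25 lists. Of 27 tested members 3 were above 0, at a median log2 fold change of -0.07, and 7 had no overlap on the lower side, against a background of 3.91%. These were BHLHE40, EPAS1, P4HA2, ERO1A, NDRG1, PLOD2 and BNIP3. The list's mean level was -0.041, -0.020 and -0.030 with 1 µg/ml insulin against 0.041, 0.057 and -0.008 with solvent, on the log2 scale centred per gene. At 0.5 µg/ml insulin the values were -0.084, 0.118 and 0.094, a wider range than both. BHLHE40, a circadian and hypoxia-linked repressor, had 192, 190 and 188 CPM with 1 µg/ml insulin against 201, 215 and 198 CPM with solvent, a log2 fold change of -0.11 ± 0.04 (95% interval -0.20 to -0.012). EPAS1, which encodes HIF-2 alpha, had 146, 153 and 151 CPM with 1 µg/ml insulin against 159, 162 and 158 CPM with solvent, a log2 fold change of -0.09 ± 0.05 (95% interval -0.18 to 0.0041). ERO1A, the hypoxia-induced relative of ERO1B, had 98.4, 100 and 90.8 CPM with 1 µg/ml insulin against 102, 104 and 106 CPM with solvent, a log2 fold change of -0.11 ± 0.07 (95% interval -0.24 to 0.032). BHLHE40 was the only member at an unadjusted edgeR p under 0.05. LOX, given above, was next by p, and its groups overlapped. EPAS1 and ERO1A were named after their values were seen.

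**Figure D4:**
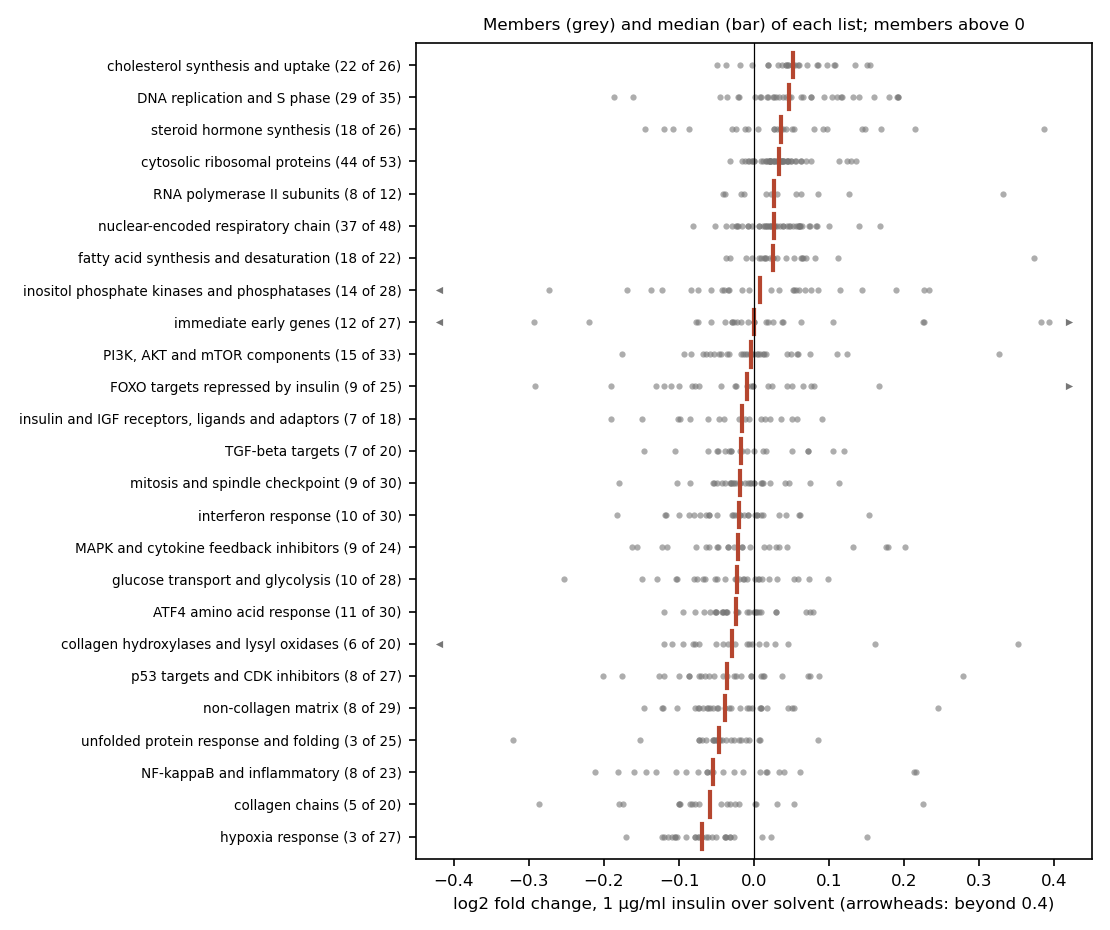
Log2 fold change, 1 µg/ml insulin over solvent, of every tested member of each gene list (points) with the list's median (bar). Medians lie between -0.07 for the hypoxia response and 0.05 for cholesterol synthesis and for S phase, and 0 members were called.

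**Figure D5:**
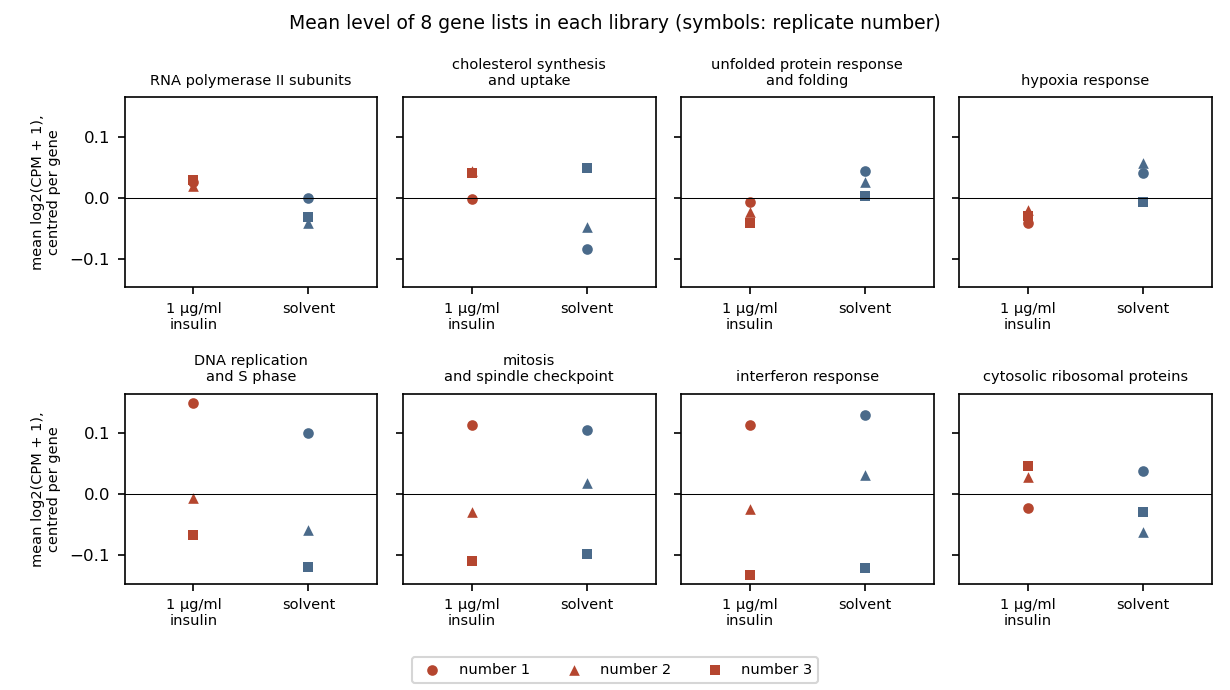
Mean log2(CPM + 1) of 8 gene lists, centred per gene, in each library, with 1 µg/ml insulin left of solvent and symbols for the replicate number. Groups did not overlap for 3 of all 25 lists, beside 7.77% of single genes tested, and those 3 are among the 8 shown. In the hypoxia, unfolded protein and RNA polymerase II panels the groups do not overlap. The RNA polymerase II mean includes POLR2J, already chosen by its p and the member of largest log2 fold change (0.33). A mean without POLR2J was not computed. In the S phase panel number 1 is highest in each group, at 0.151 with 1 µg/ml insulin and 0.100 with solvent. Number 3 is lowest there, at -0.067 with 1 µg/ml insulin and -0.119 with solvent, and the unfolded protein panel has the same order of numbers.

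The promoters of 3 of these genes are shown because HIF factors bind a short core, ACGTG or GCGTG, that can be read from the sequence. They are the 3 of smallest p among genes without overlap whose window held a match. A match was therefore a condition of the choice. Each is the window from 250 bases before to 50 after the gene's start, written 5′ to 3′ on the gene's strand, from RefSeq on GRCh38.p14. Capitals mark the letters ACGTG or GCGTG on either strand, and runs of capitals longer than 5 bases are matches that overlap. The windows are chr3:4979187-4979486 (plus strand) for BHLHE40, chr2:46297157-46297456 (plus strand) for EPAS1 and chr14:52695509-52695808 (minus strand) for ERO1A.
BHLHE40: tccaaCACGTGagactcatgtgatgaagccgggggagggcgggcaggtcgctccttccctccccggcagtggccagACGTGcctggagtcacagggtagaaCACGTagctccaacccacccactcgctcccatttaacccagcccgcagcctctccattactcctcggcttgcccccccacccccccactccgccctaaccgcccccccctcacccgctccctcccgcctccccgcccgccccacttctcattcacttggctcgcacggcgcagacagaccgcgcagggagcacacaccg
EPAS1: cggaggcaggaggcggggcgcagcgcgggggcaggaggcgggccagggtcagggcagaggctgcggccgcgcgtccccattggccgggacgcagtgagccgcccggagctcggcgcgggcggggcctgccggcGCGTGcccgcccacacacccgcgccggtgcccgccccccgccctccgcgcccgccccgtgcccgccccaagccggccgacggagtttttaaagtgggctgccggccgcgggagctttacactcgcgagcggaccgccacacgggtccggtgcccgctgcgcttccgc
ERO1A: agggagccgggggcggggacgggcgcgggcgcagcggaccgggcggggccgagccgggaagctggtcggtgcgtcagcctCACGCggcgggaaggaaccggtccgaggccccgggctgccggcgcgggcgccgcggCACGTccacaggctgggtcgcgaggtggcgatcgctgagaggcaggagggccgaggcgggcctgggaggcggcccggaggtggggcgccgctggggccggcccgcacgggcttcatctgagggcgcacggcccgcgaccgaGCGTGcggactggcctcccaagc
BHLHE40 held 4 matches, EPAS1 held 1 and ERO1A held 3. The first pair in BHLHE40 overlap as CACGTG, which is also the E-box of other basic helix-loop-helix factors. Of the 27 tested hypoxia genes 22 had a promoter in the RefSeq table, and 18 of them (81.8%) held either core. The share was 63.1% of 10236 promoters of tested genes and 48.4% of all 27305 promoters. P4HA2, also without overlap, held 0 matches. A match describes letters in this window and is not evidence of binding.

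Among the remaining lists, the p53 list held 1 member at an unadjusted edgeR p under 0.05, on the lower side. The TGF-beta list held 1 higher and 1 lower, and the share over all genes tested was 2.35%. Of 27 p53 targets and CDK inhibitors 8 lay above 0 (median -0.04). PMAIP1, the BH3-only protein NOXA, had 29.5, 27.1 and 22.3 CPM with 1 µg/ml insulin against 31.5, 30.2 and 28.98 CPM with solvent, a log2 fold change of -0.20 ± 0.09 (95% interval -0.39 to -0.011). Of 20 TGF-beta targets 7 lay above 0 (median -0.02). BHLHE40, given above, was its member of smallest p, and ID3, an inhibitor of helix-loop-helix factors, differed by 0.12 ± 0.06 (95% interval 0.0027 to 0.24) with groups that overlapped. Of 30 interferon response genes 10 lay above 0 (median -0.02), and of 23 NF-kappaB and inflammatory genes 8 did (median -0.06). Without solvent library 2 the NF-kappaB median was -0.00257 and the p53 median was -0.00543. NFKBIA, the NF-kappaB inhibitor, had 92.7, 92.8 and 88.8 CPM with 1 µg/ml insulin against 94.9, 100 and 96.9 CPM with solvent, a log2 fold change of -0.09 ± 0.05. None of the interferon or NF-kappaB genes reached an unadjusted edgeR p under 0.05. Of 18 genes listed as signs of RNA quality, 1 was in the table (HBB, at 0) and none could be tested.

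Estimated differences beyond 1.5-fold at 5 CPM or more were confined to 4 rows of the table, CBSL, EIF3CL, CD99-2 and ASMTL-2. In the first 3 the counts swung between libraries of a group. CBSL had 200, 8 and 233 counts with 1 µg/ml insulin against 7, 4 and 188 with solvent. EIF3CL had 38, 328 and 176 counts with 1 µg/ml insulin against 238, 25 and 22 with solvent, and CD99-2 had 2830, 81 and 143 against 288, 2356 and 2856. CBSL and EIF3CL carry the names of near-copies of CBS and EIF3C, so reads could be counted under either. Summed with CBS the CBSL counts were 431, 224 and 486 with 1 µg/ml insulin against 224, 206 and 424 with solvent. Summed with EIF3C the EIF3CL counts were 122, 451 and 367 with 1 µg/ml insulin against 377, 123 and 117 with solvent. Both sums overlapped between the groups. ASMTL-2 had 113, 116 and 136 counts with 1 µg/ml insulin against 181, 225 and 147 with solvent, without overlap, and a log2 fold change of -0.62 ± 0.20 (95% interval -1.04 to -0.20). By their names CD99-2 and ASMTL-2 may be further copies of CD99 and ASMTL. Whether reads were split between such copies was not checked, so the same limit may hold for both. The splicing factor gene U2AF1, below 5 CPM, had 196, 124 and 35 counts with 1 µg/ml insulin against 23, 19 and 29 with solvent. Its copy U2AF1L5, alike over 100% of its transcript, had 8, 15 and 9 counts with 1 µg/ml insulin against 10, 343 and 11 with solvent. Their sums, 204, 139 and 44 with 1 µg/ml insulin against 33, 362 and 40 with solvent, overlapped.

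LOC102724200 had the smallest p of all genes tested by edgeR, again without a call, at 10, 7 and 11 counts with 1 µg/ml insulin against 44, 19 and 46 with solvent. The log2 fold change was -1.97 ± 0.41, and the 0.5 µg/ml libraries held 3, 12 and 8 counts. Shared sequence with other genes was not checked for LOC102724200, whose position came from RefSeq. INHA, the inhibin alpha chain that granulosa cells secrete, was below 1 CPM in every library of both groups. It had 19, 15 and 19 counts with 1 µg/ml insulin against 6, 6 and 12 with solvent, all insulin libraries above all solvent libraries, a log2 fold change of 1.12 ± 0.40 (95% interval 0.27 to 1.96). With 1 solvent library at 10 counts or more, INHA entered the test mainly through the insulin libraries, so its direction is not support for a response. In CPM this was 0.877 ± 0.115 with 1 µg/ml insulin and 0.399 ± 0.161 with solvent (SD, 3 libraries each), and 0.690 at 0.5 µg/ml. The beta chains INHBA and INHBB had ranges that overlapped between groups, at 68.3 to 74.9 and 6.81 to 10.003 CPM with 1 µg/ml insulin against 68.96 to 82.7 and 7.11 to 9.35 CPM with solvent. INHA, CBSL, EIF3CL, CD99-2, ASMTL-2, U2AF1, U2AF1L5 and LOC102724200 were chosen after their values were seen.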

How the data were processed

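The authors deposited raw read counts per gene symbol and FPKM values for the same genes. Per the submitters' processing notes the tools were Trimmomatic, HTSeq and DESeq and the build was hg38. Aligner, annotation and strand setting: not given in the sources used here. Deposited counts were tested as they stand, and the authors' FPKM values serve only to order levels between genes.

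Genes with at least 10 counts in at least 3 of the 6 libraries were kept. TMM scaling and the quasi-likelihood F-test of edgeR 4.0.16 were applied in a single model over all 9 libraries, with Benjamini-Hochberg adjustment over 12594 genes and a threshold of 0.05. All p-values are two-sided. SE is |log2 fold change|/√F, from which 95% intervals follow by the t distribution. CPM uses library totals multiplied by TMM factors. Unscaled totals ran from 18965722 to 20446405 counts. List levels are means of log2(CPM + 1) centred per gene over the 6 libraries. Shared sequence between transcripts was found with blastn 2.17.0 against GENCODE release 29 at 98% identity over 100 bases or more.

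Named genes were any called (up to 10 per direction), the 6 of smallest p per direction at 5 CPM or more without overlap, the 4 of largest change per direction at 10 CPM or more without overlap, the 2 of smallest p in each list, INSR, IGF1R, IRS1, IRS2, GRB10, FOXO1, AKT1 and AKT2, the 5 of highest FPKM and the 3 of narrowest interval. Others were added after their values were seen. The members and lists were chosen with earlier results of these data known. Alternatives were RLE scaling, library totals alone, no filter, 1 CPM in 3 libraries, the 6 libraries alone, the replicate number as a block, DESeq2 1.42.0, limma voom (limma 3.58.1) and leaving out each library. The edgeR steps were tested on simulated data.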

Additional observations from a re-analysis of the deposited data

How the results depend on the processing

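The count of 0 called genes held under RLE scaling, library totals alone, no filter, the 1 CPM filter, the 6 libraries alone, the block in 9 libraries, DESeq2, limma voom and each omitted library (0 to 0). The replicate numbers are shared between the groups, but the labels tie them to no culture or day. Deviations of same-numbered insulin and solvent libraries over 10599 genes correlated at 0.13, -0.02 and 0.30. Numbers 1 and 3 matched their own number best, and insulin library 2 matched solvent library 1 best, at 0.09. That is a hint from the data and not from the design, and the samples were not treated as paired. With the replicate block in 9 libraries 0 genes were called and 341 had an unadjusted p under 0.05. With the replicate block in the 6 libraries alone, an alternative chosen after seeing the data, 4 were called (BOLA2B, LOC102724200, U2AF1 and U2AF1L5) and 611 had such a p. BOLA2B, alike over 100% of its transcript to BOLA2, had 3, 1 and 12 counts with 1 µg/ml insulin against 5, 27 and 63 with solvent. U2AF1 and U2AF1L5 are copies of each other, as given above. An unadjusted p under 0.05 was reached by 172 genes with DESeq2 and by 207 (without solvent library 2) to 488 (without solvent library 1) when a library was left out, against 296. Genes without overlap then numbered 1881 to 2739, fewer samples being compared, and intervals excluded a 1.5-fold change for 10851 to 10895. Of 89 named genes 81 kept their sign under every alternative that tested them (15, or 14 for the 6 genes that the 1 CPM filter removed). The exceptions, all near 0, were INSR (-0.027 to 0.13 on leaving out a library), FOXO1 (-0.011 to 0.13), AKT1 (-0.042 to 0.024, and 0.00133 with library totals alone), FTL (-0.085 to 0.082), FTH1 (-0.055 to 0.027), B2M (-0.028 to 0.017), GRB10 (-0.032 to 0.019) and CKAP4 (-0.0196 to 0.0029). Of 25 list medians 15 kept their sign throughout, and leaving out a library moved 23 by over 1.5 times, all but the hypoxia and unfolded protein lists. The hypoxia median ran from -0.08 to -0.05 and the unfolded protein median from -0.07 to -0.03. The mitosis median ran from -0.08 to 0.04 and the interferon median from -0.13 to 0.04. The cause of these shifts was not tested. Intervals were widest for genes of low count.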

Other observations

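The 25 genes with an estimated difference beyond 2-fold were mostly close to the limit of detection, with 20 of them below 1 CPM. Of the 25, 16 stood higher with 1 µg/ml insulin and 9 lower. For 11 of the 25 the minimum count was met in 1 group alone, so those genes entered the test only because the groups differ, and their direction is not support for a response. PYGM, FAM222A, SALL4 and MPV17L are among those 11. PYGM, muscle glycogen phosphorylase, had 18, 10 and 18 counts with 1 µg/ml insulin against 6, 7 and 6 with solvent. FAM222A had 16, 23 and 17 counts with 1 µg/ml insulin against 5, 2 and 9 with solvent, and MACROD2 had 19, 16 and 19 against 5, 1 and 11. On the lower side SALL4, a transcription factor of stem and germ cells, had 2, 4 and 3 counts with 1 µg/ml insulin against 10, 11 and 12 with solvent. MPV17L had 5, 4 and 9 counts with 1 µg/ml insulin against 14, 14 and 17 with solvent, and GDPD3 had 6, 12 and 11 against 13, 26 and 27. None of these genes was called by edgeR, and all were named after their values were seen.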
